A study of Mus musculus with 2 samples.

Results

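The glucocorticoid receptors and their target genes were examined as a group of 10 genes in the prefrontal cortex (PFC) of mice exposed to chronic mild stress (CMS) and of control (C) mice. The genes were taken from a list of names: the receptors Nr3c1 and Nr3c2, the receptor-binding chaperone Fkbp5, the targets Sgk1, Tsc22d3, Klf9, Zbtb16 and Pdk4, and the metallothioneins Mt1 and Mt2. They were 10 of the 37074 gene names on the array, and all 10 were among the 27119 names that gave a ratio between the groups. Many of these names are accessions without a gene symbol, so that all genes, as used below, includes unnamed transcripts. The list is defined by name and sets no limit on any measured value. None of the 10 genes differed by more than 1.5-fold between the pools, which is near the share of all names, of which 3.66% were higher and 2.08% lower by that much. Sgk1, Tsc22d3, Mt1 and Mt2 had signals between 12.7% and 18.7% lower in the CMS pool. Those of Nr3c1, Nr3c2 and Fkbp5 were between 1.90% and 5.91% lower on the brightest probe of each gene. A second Nr3c1 probe was 7.45% higher. The differences of these last 3 genes lay within the error given by the scanner software.

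Both groups were male mice of the strain C57Bl/6 N sea, aged 9 to 10 weeks at the start. The C group received ordinary care, and the CMS group was housed individually and exposed to varying mild stressors over 4 weeks, so housing and stressors cannot be told apart. Total RNA from the PFC of each group was pooled and hybridized with the dye Cy3 to 1 one-color Agilent array, both arrays on 1 slide. The design text gives 7 mice per pool, while the methods give 10 mice per group. Because each group had 1 array, the groups could not be tested against each other and no spread between mice could be had, so every value below describes these 2 pools.

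Glucocorticoids, in mice mainly corticosterone, are released by the adrenal cortex under stress and on a daily rhythm. They bind the glucocorticoid receptor and the mineralocorticoid receptor, which leave their chaperones in the cytoplasm, enter the nucleus and bind response elements in the DNA near target genes. In the brain both receptors take part in the feedback that limits the stress response, and the PFC is among the regions where this feedback acts. Target genes such as Fkbp5, Sgk1 and Tsc22d3 are widely used as readouts of receptor activity.

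The promoters of 3 genes are shown because Sgk1 and the metallothioneins were among the 4 genes with the lowest ratios and their promoter regions hold response elements of different kinds. They were thus picked by ratio and by motif, and Tsc22d3, the other of these 4 genes, held neither kind of element. The sequences are from RefSeq (GRCm38.p6) and run from 250 bases before to 50 bases after an annotated transcription start, 5′ to 3′. Capitals in the Sgk1 sequence mark a glucocorticoid response element, searched on both strands as the half-site AGAACA, 3 bases of any kind and the inverted half-site TGTTCT. Capitals in the metallothionein sequences mark metal response element cores, searched on both strands as TGCACNC and TGCGCNC. The positions are chr10:21993640-21993939, + strand, for Sgk1 (start 5 of the 6 in the table), chr8:94178839-94179138, + strand, for Mt1 and chr8:94172368-94172667, + strand, for Mt2.
Sgk1: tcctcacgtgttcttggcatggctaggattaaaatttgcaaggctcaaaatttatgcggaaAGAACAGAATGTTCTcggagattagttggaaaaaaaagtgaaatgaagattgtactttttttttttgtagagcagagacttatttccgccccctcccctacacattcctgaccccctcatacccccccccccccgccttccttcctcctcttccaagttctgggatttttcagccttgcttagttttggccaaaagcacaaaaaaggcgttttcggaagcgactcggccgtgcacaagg
Mt1: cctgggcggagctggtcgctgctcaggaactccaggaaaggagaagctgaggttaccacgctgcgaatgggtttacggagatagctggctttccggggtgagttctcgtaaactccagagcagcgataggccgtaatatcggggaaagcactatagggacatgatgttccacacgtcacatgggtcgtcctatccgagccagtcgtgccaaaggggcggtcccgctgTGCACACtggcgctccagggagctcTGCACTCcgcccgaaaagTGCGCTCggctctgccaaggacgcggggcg
Mt2: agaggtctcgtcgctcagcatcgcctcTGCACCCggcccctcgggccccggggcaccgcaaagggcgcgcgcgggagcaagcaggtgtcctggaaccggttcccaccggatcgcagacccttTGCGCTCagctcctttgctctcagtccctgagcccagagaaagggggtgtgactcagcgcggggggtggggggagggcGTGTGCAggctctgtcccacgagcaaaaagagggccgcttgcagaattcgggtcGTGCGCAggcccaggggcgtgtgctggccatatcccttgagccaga

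Of 15 promoter windows of 8 of the genes, this Sgk1 window was the one with a complete response element, whose first base lay 189 bases before the start. Complete elements were found in 3 of the 32851 promoter windows of the table (0.0091%). With up to 2 mismatches at the 12 fixed letters, a further Sgk1 window held a match, and 1.84% of all promoters did. At least 1 half-site stood in 4 of the 15 windows and in 19.0% of all promoters. These counts include the half-sites within the complete element. At least 1 metal response core stood in 4 of the 15 windows and in 25.7% of all promoters. The Mt1 window held 3 cores and the Mt2 window 4, while 7.11% of all promoters held at least 2 and 0.518% at least 4. The Nr3c2 window and 1 further Sgk1 window held 1 core each. The windows of Fkbp5, Klf9 and Pdk4 held none of these motifs. Tsc22d3 had 3 windows without a metal response core or a response element, also with up to 2 mismatches, and 1 of them held 1 half-site. A match describes letters in these windows only, and which Sgk1 start gave the transcripts that the probe measured was not tested. The promoters of Zbtb16 and Nr3c1 are not shown.

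Signals are the scanner software's background-subtracted intensities, scaled to a mean of 2500 on each array, and a log2 ratio is that of the CMS signal over the C signal. The array carries 59305 spots, and 65.2% of them with C RNA and 65.9% with CMS RNA were well above background. The software gave each spot of the 10 genes an error near 10% of its signal, which corresponds to an error of 0.20 to 0.23 in the log2 ratio. Spots of 1 probe within an array were closer than this, and their log2 ratios had an SD of 0.13 over 342 probes, or 0.08 over the 267 probes at least as bright as the dimmest probe used for the 10 genes. These errors cover the arrays and not the mice. In pooled tissue, fewer cells of a type and less RNA per cell cannot be told apart. All 11 probes of the 10 genes, 1 spot each, were well above background on both arrays, and none was saturated or marked as an outlier.

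**Figure D1:**
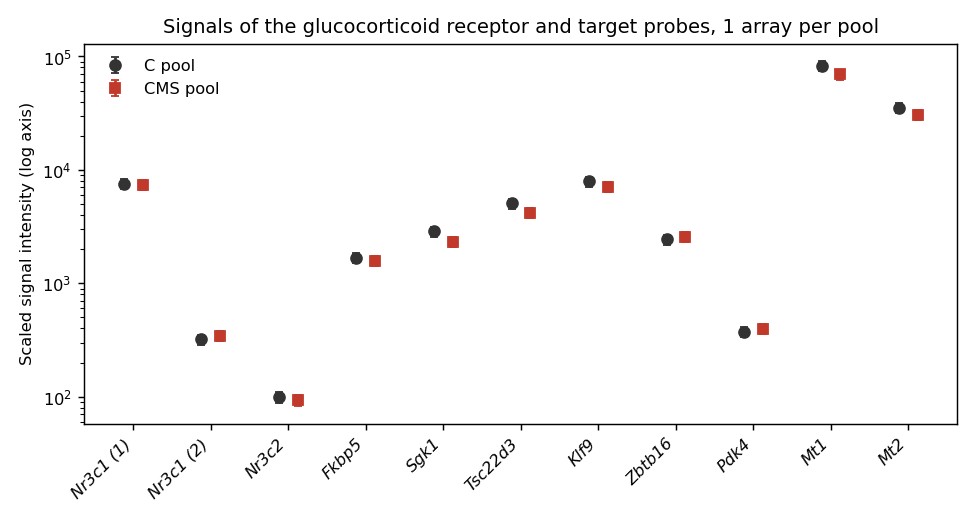
Scaled signal intensity (log axis) of the 11 probes of the 10 genes on the C array (circles) and the CMS array (squares). Bars are the scanner software's error of the spot, heights are to be compared within a probe only, and in each probe both signals lay close together, with the widest gap at Sgk1, from 2868 in the C pool to 2331 in the CMS pool.

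Nr3c1 encodes the glucocorticoid receptor, which is occupied when hormone levels are high. The scaled signal of its brighter probe (NM_008173) was 7537 with C RNA and 7394 with CMS RNA, a log2 ratio of -0.03 with a software error of 0.20. A second probe of the same transcript had signals of 320.2 and 344.1 and a log2 ratio of 0.10. The signs differed between the probes, and both ratios lay within the software error of 0.

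Nr3c2 encodes the mineralocorticoid receptor, which binds glucocorticoids with higher affinity and is already occupied at low hormone levels. Its probe (NM_001083906) was the dimmest used, with a signal of 98.5 with C RNA and 92.7 with CMS RNA. The log2 ratio was -0.09 with an error of 0.23. For both receptor genes the ratios thus lay within the software error of 0. Those of Nr3c2 and of the second Nr3c1 probe exceeded the SD of 0.08 between bright spots but not the 0.13 over all 342 probes. The Nr3c2 signal was below those of all the bright probes, of which the dimmest was at 101.5 with C RNA.

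Fkbp5 encodes a co-chaperone that lowers the affinity of the receptor for its hormone and is itself induced by it, which closes a short feedback loop. Its signal (NM_010220) was 1685 with C RNA and 1588 with CMS RNA. The log2 ratio of -0.09, with an error of 0.20, was above that of 34.5% of all genes with a ratio or equal to it. The value thus lay well inside the bulk of the array.

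Sgk1 encodes a kinase that regulates ion channels and transporters and is induced by both receptors. Its signal (NM_001161845) was 2868 with C RNA and 2331 with CMS RNA, 18.7% lower, with a log2 ratio of -0.30 and an error of 0.20. This was the lowest ratio of the 10 genes, and 8.14% of all genes with a ratio were as low or lower. Among the 19706 names well above background on both arrays and at least as bright as the dimmest of the 10 genes, the share was 2.96%. The spot lay in the first of the 164 columns of the array. Spots within 10 rows and columns of it had a median log2 ratio of -0.09, and with this local median taken off the ratio of Sgk1 was -0.21.

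Tsc22d3 encodes GILZ, a leucine zipper protein that carries part of the anti-inflammatory action of glucocorticoids. Its signal (NM_001077364) was 5073 with C RNA and 4182 with CMS RNA, 17.6% lower. The log2 ratio was -0.28 with an error of 0.20, and 9.16% of all genes were as low or lower. The surrounding spots had a median of -0.05, and the ratio less this median was -0.23. Sgk1 and Tsc22d3 thus lay beyond the software error of 0 but short of 2 such errors.

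Klf9 encodes a zinc finger transcription factor that responds to glucocorticoids and thyroid hormone in neurons. Its signal (NM_010638) was 7925 with C RNA and 7124 with CMS RNA, and the log2 ratio of -0.15 was within the software error of 0.20. Zbtb16 encodes PLZF, a transcriptional repressor, and had signals of 2437 with C RNA and 2577 with CMS RNA (NM_001033324). Its log2 ratio of 0.08 was the highest of the 10 genes. Pdk4 encodes a kinase that inhibits pyruvate dehydrogenase and so spares glucose, and its signals (NM_013743) were 375.1 and 395.8. Its log2 ratio was 0.08 as well, and neither of these higher values passed the error of 0.20 or 0.21.

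Mt1 and Mt2 encode metallothioneins, small proteins that bind zinc and copper and are induced by metals as well as by glucocorticoids. The Mt1 signal (NM_013602) was 82508 with C RNA and 69418 with CMS RNA, 15.9% lower, with a log2 ratio of -0.25 and an error of 0.20. The Mt2 signal (NM_008630) was 35014 with C RNA and 30571 with CMS RNA, 12.7% lower, with a log2 ratio of -0.20 and an error of 0.20. Both signals were thus lower in the CMS pool by similar amounts, and with their local medians taken off both ratios were -0.18. The 2 genes are close paralogs, and whether either probe also read the transcript of the other was not tested, so they may not be independent measurements.

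**Figure D2:**
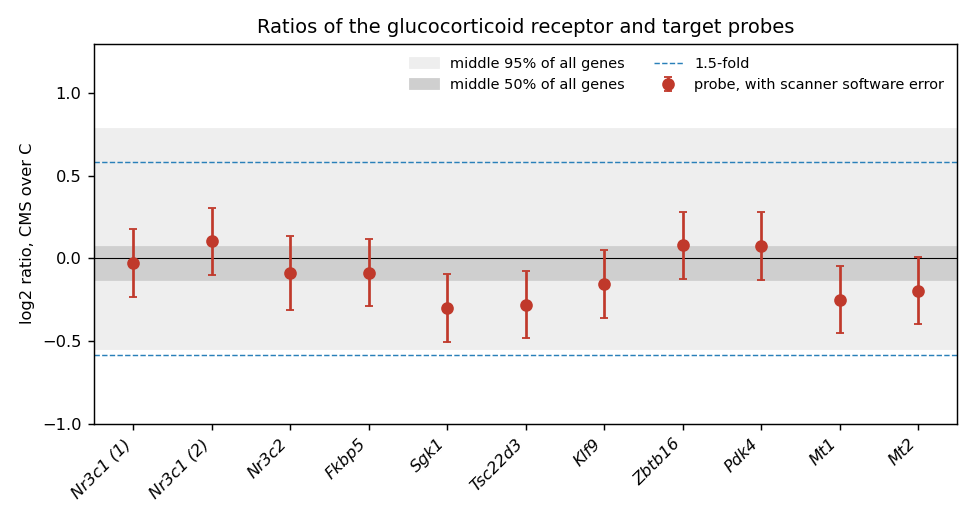
Log2 ratio of CMS over C for each of the 11 probes (points) with the error given by the scanner software (bars). The light and dark bands hold the middle 95% and 50% of all 27119 genes with a ratio, dashed lines mark 1.5-fold, and all 10 genes lie inside the light band, from -0.30 for Sgk1 to 0.08 for Zbtb16.

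Taking 1 probe per gene, the median ratio of the 10 genes was -0.12, with a range of -0.30 to 0.08, and 8 lay below 0. The median of all genes with a ratio was -0.03 and 58.8% of them were below 0. Measured against this median, 7 of the 10 genes were lower and 3 were higher. All 10 lay in the middle 95% of all genes, from -0.55 to 0.79, and 3 in the middle quartiles, from -0.13 to 0.07. For 3 genes, Sgk1, Tsc22d3 and Mt1, the ratio was farther from 0 than the software error, and for 0 genes farther than 2 such errors. Against the SD between bright spots, 8 genes were farther from 0 than 1 SD and 4 farther than 2 SDs, namely these 3 and Mt2. This SD compares spots on the same 2 arrays, and the shares of all genes past it and past the software error were not counted. Of all genes with a ratio, 15.3% were as low as Mt2 or lower, and 10.8% as low as Mt1 or lower. Values this low were thus not particular to the 10 genes. Among the 19706 bright names the lower quartile was -0.11, itself farther from 0 than 1 SD, so passing it was common. Of the 19706 bright names, 79.9% lay between the lowest and the highest of the 10.

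The count of the 10 genes past a fold threshold was 0 at 1.5-fold and at 2-fold, in either direction. Of all 27119 genes with a ratio, 3.66% were over 1.5-fold higher in the CMS pool and 2.08% more than 1.5-fold lower. At 2-fold the shares were 1.96% higher and 0.564% lower. Of the 25442 names well above background on both arrays, 2.15% had a signal over 1.5-fold higher with CMS RNA and 1.08% one over 1.5-fold lower. A count of 0 of 10 is near these shares.

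The ratios depended on the scaling of the arrays. Over 12 settings, all but the one with no scaling, the ratio of Sgk1 lay between -0.33 and -0.21, that of Tsc22d3 between -0.31 and -0.20, that of Mt1 between -0.28 and -0.18 and that of Mt2 between -0.23 and -0.17. Klf9 lay between -0.19 and -0.12, Nr3c2 between -0.12 and -0.05 and Fkbp5 between -0.12 and -0.0002. Measured against the median of all genes in each of the 13 settings, Fkbp5 ran from -0.06 to 0.02, so its sign was not stable. The ratio of Nr3c1 changed sign, from -0.06 to 0.04, as the mean of its 2 probes was the setting above 0. Zbtb16 stayed between 0.05 and 0.11 and Pdk4 between 0.05 and 0.13. With no scaling the median of all genes moved from -0.03 to -0.20, and then Zbtb16 was at -0.09 and Pdk4 at -0.10.

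**Figure D3:**
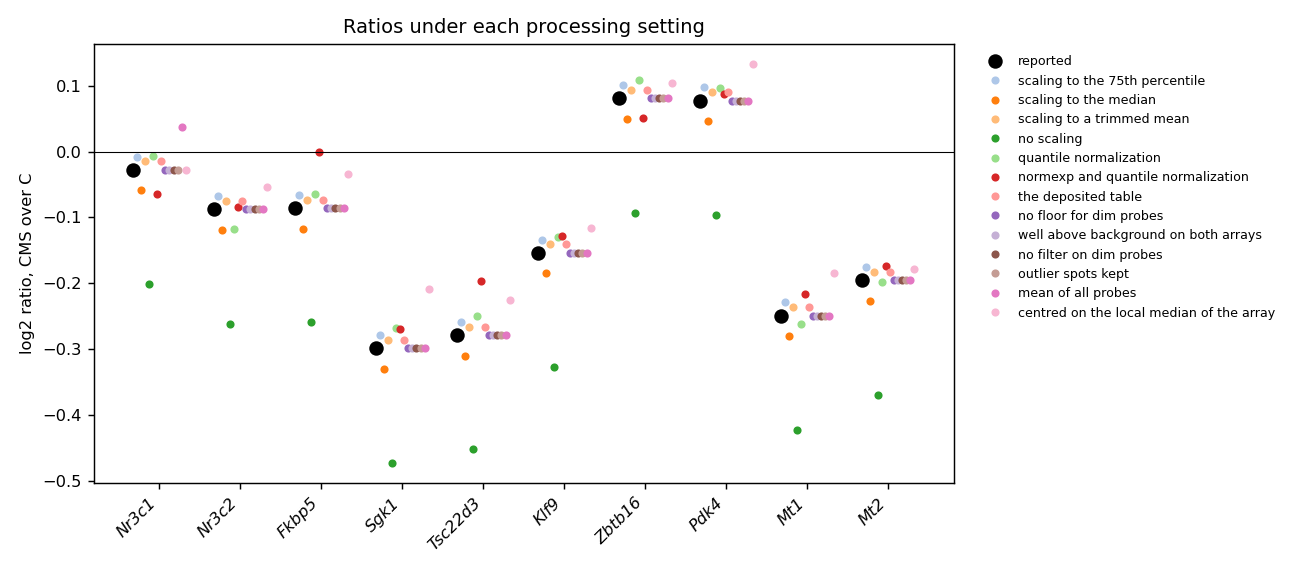
Log2 ratio of CMS over C of each of the 10 genes under each processing setting (points, colors as in the key), with the reported value in black. The setting with no scaling lies lowest for every gene, and in the other 12 settings Sgk1, Tsc22d3, Klf9, Mt1 and Mt2 stay below 0 while Zbtb16 and Pdk4 stay above 0.

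Genes for the proteins around the receptors were read in the same way. All 12 genes of the receptor chaperones, which fold the receptor into its hormone-binding form, had a ratio, and 0 passed 1.5-fold, near the 3.66% higher and 2.08% lower of all genes. Their median log2 ratio was -0.03 with a range of -0.21 to 0.11, and Bag1, a co-chaperone, lay nearest to it at -0.03. On the brightest probe of each gene, all 11 coregulators, which join the receptor to the transcription machinery, lay between -0.16 and 0.01. Their median was -0.06, with Ncoa1 at -0.06. Dimmer probes of 2 of them, chosen after their values were seen, lay outside this range. A dimmer Ncoa3 probe, with signals of 62.8 and 39.5, was at -0.67, and one of Ncor1 was at 0.17. Fkbp4, which competes with Fkbp5 on the receptor complex and was chosen after its value was seen, had signals of 937 and 824 and a log2 ratio of -0.19.

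Genes of corticosteroid synthesis, conversion and transport were read for 8 of 10 names, since Hsd11b2 and Cyp11b1 did not rise well above background in either pool. Their median was 0.07, and Cyp11a1, which starts steroid synthesis from cholesterol, had a log2 ratio of 0.09. Serpina6, which encodes the corticosteroid-binding globulin of the blood and is made mainly by the liver, was the 1 gene past 1.5-fold. Of all genes, 3.66% were higher by that much. The Serpina6 signal rose from 20.5 with C RNA to 130 with CMS RNA, a log2 ratio of 2.67 with an error of 0.34. Its second probe was not well above background in either pool. With normexp background correction the ratio was 1.37.

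Hsd11b1 regenerates active glucocorticoid inside cells, and H6pd supplies the cofactor for this step. Both were chosen after their values were seen, because their ratios were nearly equal. The Hsd11b1 signal was 858 with C RNA and 1181 with CMS RNA, a log2 ratio of 0.46. Its probe stood on the arrays 10 times, and the 10 log2 ratios ran from 0.41 to 0.57 with an SD of 0.05. The H6pd signal was 209 with C RNA and 287 with CMS RNA, a log2 ratio of 0.46 with an error of 0.21. Both genes are also strongly expressed in the liver, and markers of hepatocytes, given below, were higher in the same pool. The part of that signal in these 2 ratios was not tested.

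A wider list of 24 glucocorticoid-induced genes gave a median of -0.07. Of the 24, 18 were below 0, beside 58.8% of all genes. Measured against the median of all genes, 16 were lower and 8 were higher. The gene nearest to the median of the list was Mertk, a receptor for the uptake of dying cells, at -0.07. Past 1.5-fold, 0 genes were higher and 2 were lower, beside the 3.66% and 2.08% of all genes. Dusp1, a phosphatase that switches off MAP kinases, fell from a signal of 1460 to 747, a log2 ratio of -0.97 or 1.95-fold. Per1, a component of the circadian clock, fell from 8206 to 5166, a log2 ratio of -0.67 or 1.59-fold. Neither passed 2-fold here, but with no scaling Dusp1 was at -1.14 and did. Under the other settings Dusp1 lay between -0.998 and -0.84 without passing 2-fold, and Per1 between -0.70 and -0.61.

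Dusp1 and Per1 are also induced by neuronal activity. The immediate early genes of neurons, a list of 10, were lower in the same pool, with a median of -1.12 and a range of -1.72 to -0.53. Of these, 9 were more than 1.5-fold lower, beside 2.08% of all genes. Their summed signal was 71961 with C RNA and 34730 with CMS RNA, and of the 2 brightest with C RNA, Nr4a1 was at -1.25 and Arc at -1.72. Egr1, chosen after its value was seen, was the brightest of the list with CMS RNA and had the smallest difference of the list, at -0.53. Their part in the ratios of Dusp1 and Per1 was not tested. Among the other genes of the list of 24, chosen after their values were seen, Ddit4 was at -0.38, Cebpd at -0.37 and Nfkbia at -0.33, while Angptl4 was at 0.51, Sult1a1 at 0.33 and Cebpb at 0.30. Cdkn1a, whose probe also stood on the arrays 10 times, had a log2 ratio of -0.01 with an SD of 0.07 between spots. The list thus held values on both sides of 0, but unevenly, with 18 genes below it and 6 above.

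**Figure D4:**
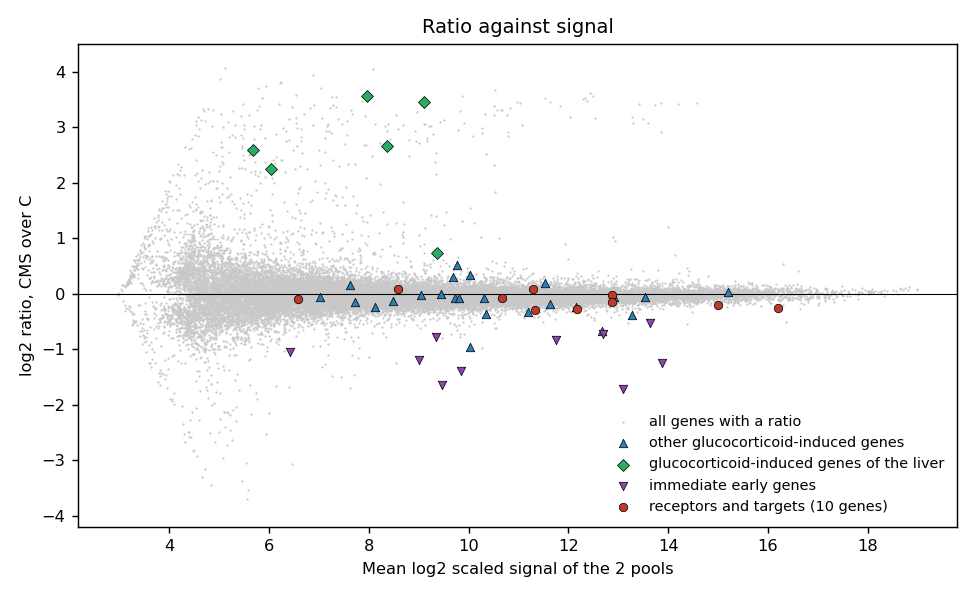
Log2 ratio of CMS over C (vertical axis) against the mean log2 scaled signal of the pools (horizontal axis) for all genes with a ratio (gray), with the 10 receptor and target genes (circles) and 3 other lists marked. The 10 genes lie in the gray band between -0.30 and 0.08, the 6 liver genes lie above it from 0.74 to 3.57, and the immediate early genes lie below 0.

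A separate list held glucocorticoid-induced genes of the liver. All 6 rose more than 1.5-fold in the CMS pool and 5 of them more than 2-fold, beside 3.66% and 1.96% of all genes, with a median log2 ratio of 2.63. Pck1 and G6pc, enzymes of gluconeogenesis, rose from 72.4 to 857 (log2 ratio 3.57) and from 131 to 830 (2.66). Igfbp1, a binding protein for insulin-like growth factors, rose from 167 to 1838 (3.46). Tdo2, which degrades tryptophan, rose from 20.9 to 125 (2.59), and Cps1 of the urea cycle from 30.1 to 144 (2.26). Tat, which degrades tyrosine, rose from 508 to 848 (0.74). With normexp background correction Tdo2 was at 1.34 and Cps1 at 1.01.

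Markers of hepatocytes moved with these genes and with Serpina6. All 10 rose more than 1.5-fold in the CMS pool and 9 of them more than 2-fold, beside 3.66% and 1.96% of all genes. Their median was 3.27, and all 10 were well above background in both pools. Their summed signal was 19799 with C RNA and 78293 with CMS RNA. Albumin (Alb) rose from 1509 to 17486, a log2 ratio of 3.53, and Trf, also made by oligodendrocytes, had a ratio of 0.70. Their part in the higher liver genes was not tested.

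Among the stress axis peptides and receptors, 8 of 11 genes gave a ratio, with a median of -0.10 and Adcyap1, which encodes the peptide PACAP, near it at -0.14. Avp, which encodes vasopressin, was the 1 gene past 1.5-fold, beside the 2.08% of all genes that were lower by that much. The Avp signal was 77.6 with C RNA and 15.2 with CMS RNA, where it was not well above background. Set there to the lowest signal well above background, 17.6, it gave a bound of 4.41-fold lower. With normexp background correction its log2 ratio was -1.002, so this bound holds for the reported processing only. Crh, which encodes corticotropin-releasing hormone and was chosen after its value was seen, had signals of 1098 and 1110 and a log2 ratio of 0.02. Avpr1a, Avpr1b and Mc2r did not rise well above background in either pool.

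The 19 relatives of the 10 genes in the same families had a median of -0.02 and a range of -0.34 to 0.40, with Tsc22d1 nearest to the median at -0.02. Of these relatives 0 passed 1.5-fold, near the 3.66% higher and 2.08% lower of all genes. The 3 other pyruvate dehydrogenase kinases, chosen after their values were seen, had log2 ratios of 0.11 for Pdk1, 0.01 for Pdk2 and -0.09 for Pdk3. Of the other metallothioneins, Mt3, the form typical of the brain, had signals of 4530 and 4363 and a log2 ratio of -0.05, and Mt4 had signals of 33.2 and 32.8. The 7 genes of zinc transport and the metal response had a median of -0.06 and a range of -0.22 to 0.22, with the zinc transporter Slc30a3 at -0.06. Of these 7 genes 0 passed 1.5-fold, which is also near the shares of all genes. Mtf1, which encodes the factor that binds metal response elements, differed between its probes, with -0.22 on the brighter and 0.05 on the dimmer probe.

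**Figure D5:**
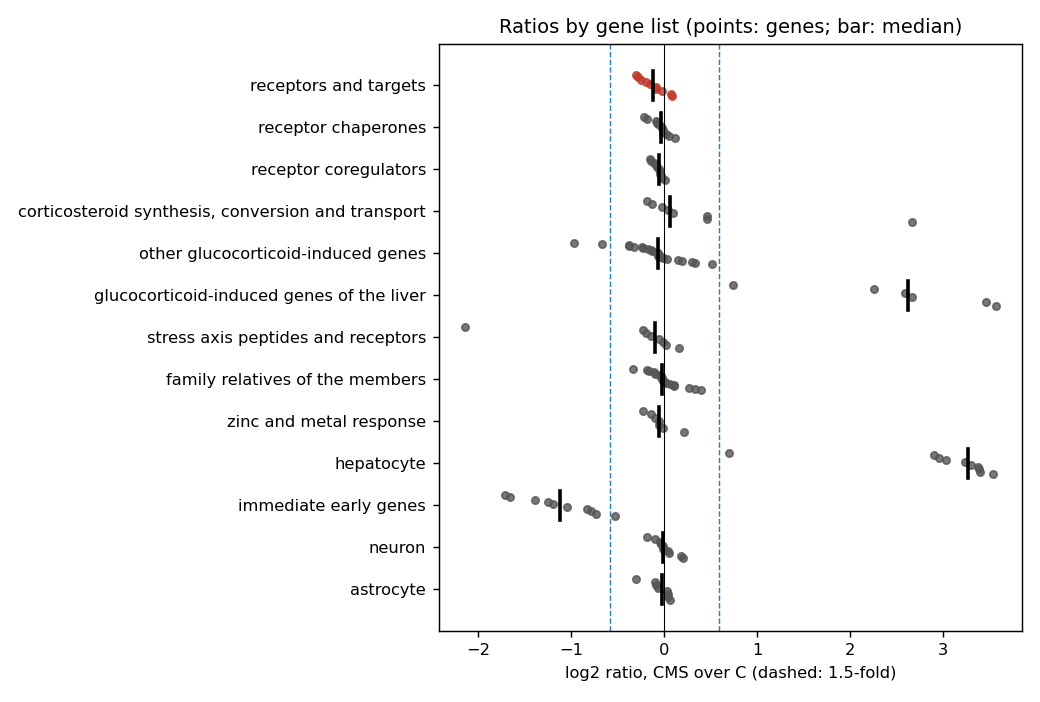
Log2 ratio of CMS over C of each gene (points) by list, with the list's median as a black bar and dashed lines at 1.5-fold. The receptors and targets (red) have a median of -0.12, the chaperones and coregulators lie close to 0, and the liver genes and hepatocyte markers lie to the right with medians of 2.63 and 3.27.

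Markers of the cells of the cortex were measured on the same arrays. Their median log2 ratio was -0.01 for neurons, -0.02 for astrocytes, 0.05 for microglia, -0.05 for brain endothelium and -0.15 for oligodendrocytes, with 0 genes of these lists past 1.5-fold, near the shares of all genes. The brightest were Syt1 at -0.04 and Snap25 at -0.02 in neurons, and S100b at 0.06 and Slc1a3 at -0.09 in astrocytes. In oligodendrocytes Mbp was at 0.11. The labelled tissue thus carried its neuronal and glial markers on both arrays.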

How the data were processed

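Pooled PFC RNA of each group was hybridized to 1 array. Per the labels, the authors extracted intensities with Agilent Feature Extraction 10.10.1.1 and deposited, for each spot, a background-subtracted processed signal intensity on a linear scale. A second deposited table holds the same intensities multiplied by a constant for each array, and was used as an alternative. Files hold accessions, which were named through the RefSeq gene table (GRCm38.p6), giving 30740 of 59305 spots a symbol.

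Control spots were left out, as were outlier spots (130 with C RNA, 133 with CMS RNA), spots of 1 probe were averaged, and arrays were brought to a mean of 2500 (factors 0.853 and 0.963), the mean given in the methods. A probe was well above background if at least 0.5 of its spots were. If it was so on 1 array only, the other value was the higher of its signal and the lowest signal well above background there (17.8 in the C pool, 17.6 in the CMS pool), and the ratio is a bound. The brightest probe stood for a gene. No pseudocount was used. The 10 genes, the 8 pathway lists and the 11 marker lists were chosen with earlier results of these data known. Of the lists' genes, 6 are in more than 1 list. Named were all 10 genes, in each pathway list the genes past 1.5-fold (up to 6) and the one nearest the median, and the 2 brightest genes of each marker list, with those outside this rule marked in the text. A further gene that the rule names is not reported here. A gene was counted past a threshold at 1.5-fold or 2-fold. No test was run. The calculation was tested on simulated arrays with changes larger than 2-fold in genes that were not dim. Ratios as small as those of the 10 genes, and those of dim genes, were not covered by it. The precision is limited by the number of arrays, and mean processed intensities were 2929 with C RNA and 2597 with CMS RNA. Alternatives were other scalings, quantile normalization, normexp, the deposited table, other treatments of dim, outlier and multiple probes, and centring on the local median. Python 3.11.15, numpy 2.4.6, pandas 2.3.3, R 4.3.3 and limma 3.58.1 were used.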

Additional observations from a re-analysis of the deposited data

How the results depend on the processing

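Of 13 alternatives, centring on the local median of the array, over squares of 21 by 21 spots, was chosen after seeing the data. The count of the 10 genes past 1.5-fold or 2-fold stayed at 0 in all 13. The median of the 10 genes was -0.29 and that of the other glucocorticoid-induced genes -0.24 with no scaling, which lowered the median of all genes by construction, and both medians kept their sign in every alternative. Among the values for the 10 genes as a group and this list, 76 stayed within the stated limits and 2 moved. Of the values of single genes, 2155 stayed within the SD between spots and 219 moved, 183 of them with no scaling and 27 with normexp. The share of all genes more than 2-fold lower ran from 0.140% with normexp to 2.88% with no filter on dim probes, and that more than 2-fold higher from 0.977% to 4.03%. At 1.5-fold these shares ran from 0.446% to 5.85% lower and from 1.63% to 6.87% higher under the same settings. No paired analysis was possible because each group had 1 array, and for the same reason no array could be left out. Signals of dim probes, such as those of Serpina6, Tdo2 and Avp, were near the lowest signal well above background and are the least certain.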

Other observations

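Markers of blood cells and of other brain regions were measured beside the 10 genes. Of 7 erythroid markers 3 gave a ratio, with a median log2 ratio of 0.49, and the brightest were Hba-a1, a globin gene, at 0.41 and Alas2, an enzyme of heme synthesis, at 0.49. Their summed signal was 19457 with C RNA and 25811 with CMS RNA. Of 7 neutrophil markers 6 gave a ratio, 2 of these as bounds, with a median of 0.75, S100a9 at 1.18 and Camp at 0.58. All 7 striatal markers gave a ratio, 1 as a bound, with a median of 0.09, Ppp1r1b at 0.09 and Rgs9 at -0.17. Of 7 choroid plexus markers 6 gave a ratio, 1 as a bound, with a median of 0.18. Among them Kcnj13 was at -0.12 and Ttr, which the liver also makes, at 3.38. In microglia Csf1r was at 0.05 and Cx3cr1 at 0.16, and in endothelium Ly6c1 was at -0.12 and Flt1 at 0.02.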
